A study of Homo sapiens with 6 samples.

Results

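The MTRNR2L genes (MT-RNR2-like) are nuclear copies of part or most of MT-RNR2, the mitochondrial gene for the large, or 16S, ribosomal RNA. They were chosen as the entries whose deposited gene name begins with MTRNR2L. There were 8 among 51698 entries: MTRNR2L1, MTRNR2L3, MTRNR2L4, MTRNR2L5, MTRNR2L7, MTRNR2L8, MTRNR2L9 and MTRNR2L10. All 8 passed the filter on low values. Together they held between 5.31% and 10.1% of all counts in a library.

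The libraries came from 6 human prostate cancer cell lines, 1 library per line. The castration-sensitive lines are LnCaP, VCaP and LAPC4. Each has a castration-resistant line that carries its name, namely LnCaP-abl, VCaP-CR or LAPC4-CR, and was paired with it here. LnCaP and LAPC4 were kept in RPMI and VCaP in DMEM, in each case with 10% FBS. The resistant lines were kept in RPMI with 10% FBS stripped of steroids on charcoal and with B27, so state and medium cannot be told apart. Each line is 1 culture in these data, so a change within a pair has no replicate check.

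Humanin is a short peptide read from a small open frame inside MT-RNR2. It is known for protecting cells from death, through binding of BAX and IGFBP3 inside and outside the cell and through receptors at the surface, among them FPR2 and a complex of CNTFR, IL27RA and IL6ST. The nuclear copies carry versions of that frame. Because they also resemble the rest of the 16S rRNA, one of the most abundant RNAs of a cell, a read of the rRNA can match a copy. The tables held 0 entries on the mitochondrial chromosome, so MT-RNR2 itself has no value beside its copies. Transcripts of the nuclear copies and reads of mitochondrial rRNA cannot be told apart in these counts.

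The humanin frames of the 3 members with the highest and the 2 with the lowest levels are printed under the same stretch of MT-RNR2, to show how far copies at either end of the range of levels differ from it. They run 5′ to 3′ and were read from the GENCODE release 29 transcripts. Capitals mark bases that differ from MT-RNR2.
MT-RNR2: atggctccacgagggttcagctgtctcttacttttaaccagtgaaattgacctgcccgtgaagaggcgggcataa
MTRNR2L8: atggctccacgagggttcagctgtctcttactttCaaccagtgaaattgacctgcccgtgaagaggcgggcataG
MTRNR2L9: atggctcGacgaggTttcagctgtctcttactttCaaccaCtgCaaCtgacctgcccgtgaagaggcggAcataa
MTRNR2L1: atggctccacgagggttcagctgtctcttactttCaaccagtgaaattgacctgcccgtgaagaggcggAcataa
MTRNR2L7: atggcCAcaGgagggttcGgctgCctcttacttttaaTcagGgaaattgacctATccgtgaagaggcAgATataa
MTRNR2L5: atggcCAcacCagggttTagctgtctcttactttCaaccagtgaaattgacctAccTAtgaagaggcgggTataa

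The frame is 75 bases long in MT-RNR2 and in these 5 members. MTRNR2L8 and MTRNR2L1 each differed from MT-RNR2 at 2 bases of it, MTRNR2L9 at 7, MTRNR2L5 at 9 and MTRNR2L7 at 12. Of the members not printed, MTRNR2L3 differed at 9 and MTRNR2L10 at 11, and the frame of MTRNR2L4 was longer, at 87 bases. GENCODE calls the MTRNR2L9 transcript a processed pseudogene and the other 7 protein-coding, while the deposited tables class all 8 as protein-coding.

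The members lie on 7 chromosomes in the deposited coordinates, whose build is hg18 per the submitters' processing notes. MTRNR2L8 is at chr11:10486010-10487299, MTRNR2L1 at chr17:21946564-21948118 and MTRNR2L9 at chr6:62341967-62342493. MTRNR2L10 is at chrX:55224549-55225669, MTRNR2L3 at chr20:55366903-55368285 and MTRNR2L4 at chr16:3361054-3362284. MTRNR2L7 (chr10:37930372-37931865) and MTRNR2L5 (chr10:57028756-57030494) share chromosome 10. MTRNR2L3 lies inside the span of RAE1 and MTRNR2L5 inside that of PCDH15. The sources used here do not say whether the counting used strand, so reads of such overlapping genes are uncertain, and so is any split of reads between copies.

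Total counts ran from 8661337 to 22433655 per library, with more counts in the resistant library of every pair. Of 8 luminal prostate genes, 8 passed the filter, and their summed level was 358 to 2149 FPKM in the sensitive and 72.3 to 1414 in the resistant libraries. ERG, known as a fusion gene of the VCaP line, had 14.3 FPKM there, 4.88 in its resistant line and at most 0.206 in the other 4 libraries. The 3 leukocyte markers summed to at most 1.81 FPKM and the 2 endothelial ones found to at most 1.81. The 4 fibroblast markers summed to 45.9 FPKM in VCaP-CR, of which LUM made 44.8, and to at most 4.15 elsewhere. In bulk libraries, fewer cells of a type and less RNA per cell cannot be told apart.

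MTRNR2L8 had the largest share of the 8 members. Shares of single members are given as CPM, the counts per 1000000 counts of the library. MTRNR2L8 held 39099 CPM in LnCaP, 49485 in VCaP and 30509 in LAPC4, against 57744 in LnCaP-abl, 55771 in VCaP-CR and 53816 in LAPC4-CR. All 3 resistant libraries were above all 3 sensitive ones, as they were for 3.83% of the 16221 entries tested. The same percent stands beside each member below whose groups did not overlap. By count it ranked first of all 51698 entries in 5 libraries and second in VCaP.

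MTRNR2L1 was the next by share, with 23430 CPM in LnCaP, 24457 in VCaP and 13545 in LAPC4. In the resistant libraries it held 24883 (LnCaP-abl), 26875 (VCaP-CR) and 27580 (LAPC4-CR). The groups did not overlap, but 5 of the 6 values lay close together and LAPC4 stood below them. MTRNR2L9, the shortest deposited entry at 527 bases, held 7790, 9521 and 5677 CPM in LnCaP, VCaP and LAPC4. Its resistant values in the same order of lines were 12131, 10476 and 9750, again without overlap.

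The middle members were MTRNR2L10 and MTRNR2L3. MTRNR2L10 held 2940, 3428 and 1896 CPM in LnCaP, VCaP and LAPC4, and 3575, 3552 and 3598 in their resistant lines. The 3 resistant values lay close together, with a mean of 3575 ± 22.7 (SD, n = 3), against 2755 ± 783 in the sensitive lines. MTRNR2L3 held 1901, 2087 and 1199 in the sensitive lines in the same order, and 1866, 2338 and 2313 in the resistant ones. Here the groups overlapped, because LnCaP-abl was below both LnCaP and VCaP.

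The lowest 3 members held at most 267 CPM in any library. MTRNR2L4 held 199, 267 and 151 CPM in LnCaP, VCaP and LAPC4 and 267, 256 and 229 in their resistant lines. MTRNR2L7 held 77.7, 82.7 and 58.1, against 90.1, 96.7 and 102. MTRNR2L5 held 58.5, 62.2 and 53.6, against 56.1, 71.5 and 74.4. Of these 3 only MTRNR2L7 had all resistant values above all sensitive ones. MTRNR2L5, the lowest, rested on 507 to 1669 counts per library.

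**Figure D1:**
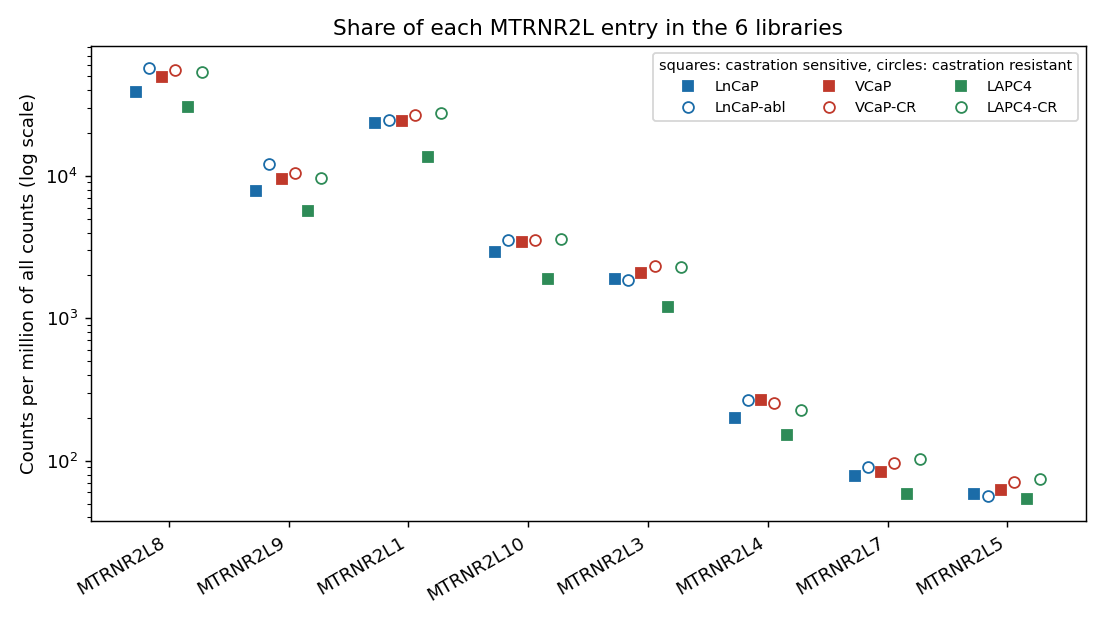
CPM of all counts (log axis) for each MTRNR2L entry in the 6 libraries, with squares for castration-sensitive and circles for castration-resistant lines. The members keep nearly the same order in every library, and LAPC4 is the lowest library for each of them.

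Per gene length, the order of levels was MTRNR2L8, MTRNR2L9, MTRNR2L1, MTRNR2L10, MTRNR2L3, MTRNR2L4, MTRNR2L7 and MTRNR2L5. Their mean FPKM over the 6 libraries was 37006, 17503, 15088, 2823, 1410, 185, 56.6 and 36.1. MTRNR2L9 (10772 to 23020 FPKM) and MTRNR2L1 (8710 to 17736) overlapped across libraries, and in LnCaP MTRNR2L1 was the higher one, at 15068 against 14781. MTRNR2L7 (38.9 to 68.4) and MTRNR2L5 (30.8 to 42.8) overlapped as well, although MTRNR2L7 was higher in each library. The highest MTRNR2L3 level (867 to 1691) came up to the lowest of MTRNR2L10 (1691 to 3209).

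This order ran close to that of likeness to MT-RNR2, with MTRNR2L4 the lowest in likeness but above MTRNR2L7 and MTRNR2L5 in level. Over the aligned bases of the GENCODE transcripts, MTRNR2L8 was 93.0% identical with MT-RNR2, MTRNR2L9 90.7% and MTRNR2L1 89.0%. MTRNR2L10 and MTRNR2L3 were at 82.7% and 82.3%, and MTRNR2L7, MTRNR2L5 and MTRNR2L4 at 80.7%, 80.3% and 79.4%. Gaps were not counted in these identities. There were 71 gap bases in MTRNR2L3, 51 in MTRNR2L10, 31 in MTRNR2L7, 19 in MTRNR2L5, 12 in MTRNR2L4 and 9 in MTRNR2L1. MTRNR2L8 and MTRNR2L9 had 0. Counting gaps would lower MTRNR2L3 and MTRNR2L10 most and could change the order below the top members. The aligned stretches were unequal. They covered 96.5% to 99.0% of MT-RNR2 in MTRNR2L1, MTRNR2L3, MTRNR2L7 and MTRNR2L10, and 83.5% in MTRNR2L8. In MTRNR2L5, MTRNR2L4 and MTRNR2L9 they covered 47.1%, 40.8% and 4.81%, so the identities do not compare whole copies alike. Across the 8 members, Spearman's rho between identity and mean FPKM was 0.93. The members share libraries and an ancestor, so this is a description. Without MTRNR2L9, whose GENCODE model has only 75 bases, rho was 0.89 over 7 members.

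Exact matches ordered the members differently. The longest run shared letter for letter with MT-RNR2 was 88 bases in MTRNR2L8, 62 in MTRNR2L10, 60 in MTRNR2L1, 45 in MTRNR2L3, 35 in MTRNR2L4, 33 in MTRNR2L5, 32 in MTRNR2L7 and 22 in MTRNR2L9. Spearman's rho between this run and mean FPKM was 0.45 over the 8 members, and 0.93 over the 7 without MTRNR2L9, which was second in level with the shortest run. For MTRNR2L9 only the 75 bases of the GENCODE model were searched, while its counts and FPKM come from a deposited entry of 527 bases. Longer exact matches in the rest of that entry were not looked for. Of all windows of 50 bases, 112 of 1254 in MTRNR2L8, 13 of 1481 in MTRNR2L10 and 11 of 1504 in MTRNR2L1 were also in MT-RNR2. None were in the other members, of which MTRNR2L9 had only 26 windows. Exact windows shared with another member were few, 26 of 1254 in MTRNR2L8 and at most 23 in any other. The sources used here give neither the read length nor the mismatches allowed in alignment, and GENCODE models differ in extent from the deposited ones (1739 deposited against 739 bases for MTRNR2L5).

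**Figure D2:**
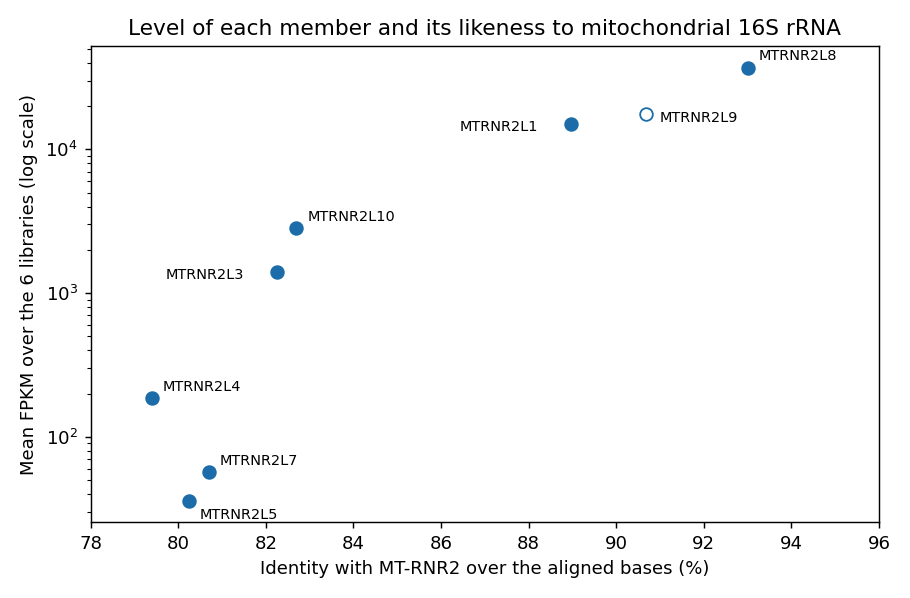
Mean FPKM of each member over the 6 libraries (log axis) against its identity with MT-RNR2 in percent over the aligned bases, gaps not counted. The 3 members at 89.0% or more sit at 15088 FPKM or higher and the 3 at 80.7% or less sit at 185 or lower; the open circle is MTRNR2L9, compared over 75 bases only.

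Other mitochondrial-type entries beside the members had few counts, with 1 exception. Close by, within 423 bases, lay 12 entries of mitochondrial type (tRNA and MTND1 pseudogenes) with 0 to 30 counts in any library. The tRNA pseudogenes among them are far shorter than the members, and some overlap the end of a member. Counts are not scaled for length, so those of the tRNA pseudogenes do not compare with the members alike. MTND1P30, 113 bases from MTRNR2L10, had 0 to 7 counts, while MTRNR2L10 had 23493 to 80711. MTND1P9, 70 bases from MTRNR2L3, had 2 to 15 counts, against 14864 to 51882 for that member. The exception was AC021914.1, a mitochondrial-type tRNA pseudogene 12 bases from MTRNR2L8, with 8181 to 32689 counts. Its log2 change of share, resistant over sensitive, was -1.55, -0.53 and -1.51 for LnCaP, VCaP and LAPC4 with their resistant lines, opposite in sign to that of MTRNR2L8 in all 3. AMPD3, which encodes an AMP deaminase and lies 307 bases from MTRNR2L8, had 39 to 138 counts.

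The larger members took similar parts of the family total in each library. MTRNR2L8 made 51.8% to 57.5% of the family counts in the 6 libraries, MTRNR2L1 24.7% to 31.0%, MTRNR2L9 10.0% to 12.1%, MTRNR2L10 3.55% to 3.89% and MTRNR2L3 1.85% to 2.52%. Among the remaining 3, MTRNR2L4 made 0.235% to 0.299% and MTRNR2L7 0.0895% to 0.109%. MTRNR2L5 ranged more widely, from 0.0558% in LnCaP-abl to 0.101% in LAPC4. The widest departure was in the LnCaP pair, where MTRNR2L8 went from 51.8% in LnCaP to 57.4% in LnCaP-abl and MTRNR2L1 from 31.0% to 24.7%. These parts do not depend on the library total. Across the 6 libraries, log2 shares of 2 members correlated with a Pearson's r of 0.46 (MTRNR2L5 with MTRNR2L9) to 0.98 (median 0.89 over 28 pairs of members), a description over libraries that also share their totals.

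The change from sensitive to resistant line was asked in each pair first. As a share of all counts, the family made up 7.55% of LnCaP and 10.1% of LnCaP-abl, 8.94% of VCaP and 9.94% of VCaP-CR, and 5.31% of LAPC4 and 9.75% of LAPC4-CR. The 3 resistant libraries were at 9.92% ± 0.16 (SD, n = 3) and the 3 sensitive ones at 7.27% ± 1.83, without overlap. Of tested entries, 3.83% were apart in that direction. As a share of protein-coding counts the family's groups overlapped, with VCaP at 14.2% above LnCaP-abl at 13.0% and LAPC4-CR at 12.3%. On all counts the folds were 1.33, 1.11 and 1.84. Their 95% counting intervals were narrow (1.83 to 1.84 in the LAPC4 pair), but they cover counting error only, since reads without molecular identifiers are not independent molecules.

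By member, the log2 change in the LAPC4 pair ran from 0.47 for MTRNR2L5 to 1.03 for MTRNR2L1, all 8 above 0, as were 53.5% of tested entries. The median of the members was 0.82, against 0.06 over the 16221 entries tested. On this scale MTRNR2L1 was the 1 member at least 2-fold higher (fold 2.04, counting interval 2.03 to 2.05), 1 of 8, where 11.3% of tested entries were past that fold in this pair. None was 2-fold lower, as were 8.67% of tested entries. MTRNR2L1 fell short of 2-fold when protein-coding counts were the denominator (log2 change 0.81). On log2(scaled FPKM + 1), where the scaling rests on median ratios, 3 of 8 were past 2-fold, MTRNR2L1 at 1.12, MTRNR2L3 at 1.04 and MTRNR2L10 at 1.02.

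In the LnCaP pair the members differed among themselves, with 6 of 8 above 0, where 50.3% of tested entries were. MTRNR2L9 and MTRNR2L8 had log2 changes of 0.64 and 0.56, MTRNR2L4 0.43, MTRNR2L10 0.28, MTRNR2L7 0.21 and MTRNR2L1 0.09. MTRNR2L3 and MTRNR2L5 were at -0.03 and -0.06, with counting intervals that held 0. The median was 0.25, against 0.01 over all tested entries. No member was 2-fold changed, where 10.6% of tested entries were higher and 11.8% lower by that much. Under the protein-coding denominator MTRNR2L1 changed sign here, to -0.10. On log2(scaled FPKM + 1) MTRNR2L3 and MTRNR2L5 changed sign instead, to 0.074 and 0.037, and 8 of 8 were above 0.

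In the VCaP pair the changes were small. They ran from -0.06 for MTRNR2L4, with an interval that held 0, to 0.23 for MTRNR2L7, with a median of 0.15 against 0.06 over all tested entries. 7 of 8 members were above 0, as were 54.7% of tested entries, and none was 2-fold changed, where 6.46% of tested entries were higher and 4.37% lower by that much. MTRNR2L10, at 0.05, changed sign with TMM-scaled library sizes (-0.0037) and under the protein-coding denominator (-0.06).

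**Figure D3:**
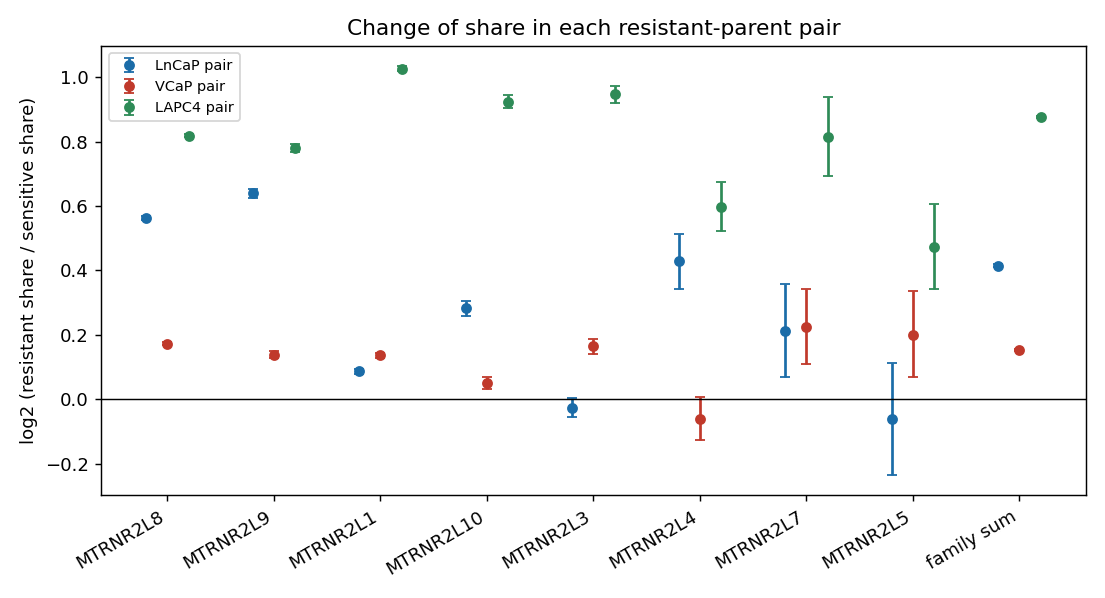
Log2 ratio of the resistant to the sensitive share of all counts for each member and for the family sum in the 3 pairs, with exact 95% counting intervals as bars. The LAPC4 pair is the highest for every member, and the 3 points below 0 have bars that reach 0.

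Across the pairs, 5 of 8 members (MTRNR2L1, MTRNR2L7, MTRNR2L8, MTRNR2L9 and MTRNR2L10) were higher in the resistant line in all 3 pairs, as were 18.4% of tested entries. The same 5 had groups that did not overlap, as had 3.83% of tested entries in that direction. The members resemble each other in sequence and may share reads, so 5 members are not 5 separate observations. With protein-coding counts as the denominator, 0 of 8 members had groups apart (2.11% of tested entries did), and 3 of 8 were higher in all pairs (10.3% of entries).

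The test over the 3 pairs called no member. With edgeR's quasi-likelihood test and the parental line as a block, MTRNR2L9 had a log2 change of 0.47 (SE 0.21, adjusted p 0.647) and MTRNR2L8 also 0.47 (SE 0.19, adjusted p 0.632). MTRNR2L10, MTRNR2L7 and MTRNR2L1 were at 0.37, 0.36 and 0.36, MTRNR2L3 at 0.31, MTRNR2L4 at 0.27 and MTRNR2L5 at 0.15, with adjusted p from 0.734 to 0.889. The median over members was 0.36, against -0.01 over all tested entries. Of the 16221 entries, 0 were called in either direction at 5% (0%), while 723 (4.46%) were higher and 546 (3.37%) lower at an unadjusted p under 0.05. MTRNR2L8 was the 1 member among these (p 0.0463 by edgeR, and 0.377 by edgeR without the block). DESeq2 called 82 entries higher and 56 lower and limma 0, with no member among them.

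The size across pairs rested largely on the LAPC4 pair. Without it, edgeR's log2 change was 0.07 for MTRNR2L1, 0.13 for MTRNR2L10 and 0.03 for MTRNR2L3, while MTRNR2L8 kept 0.33 and MTRNR2L9 0.35. LAPC4 itself had the lowest share of the 6 libraries for each of the 8 members.

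The choice of denominator touched the family because the resistant libraries had more of their counts in protein-coding entries. That share was 67.8% in LnCaP against 77.4% in LnCaP-abl. It was 62.8% against 68.0% for VCaP and VCaP-CR, and 68.3% against 79.5% for LAPC4 and LAPC4-CR. The 8 members, classed as protein-coding in the tables, were 11.1%, 14.2% and 7.78% of those counts in the sensitive and 13.0%, 14.6% and 12.3% in the resistant lines. Each pair kept its direction on this scale, but the groups overlapped, since VCaP was above LnCaP-abl and LAPC4-CR. The log2 change of the family was then 0.22, 0.038 and 0.66 (LnCaP, VCaP and LAPC4 pair in turn), against 0.41, 0.15 and 0.88 on all counts. In turn, the larger family share lowered the share of every other entry by log2 values of -0.04, -0.02 and -0.07 in these pairs.

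**Figure D4:**
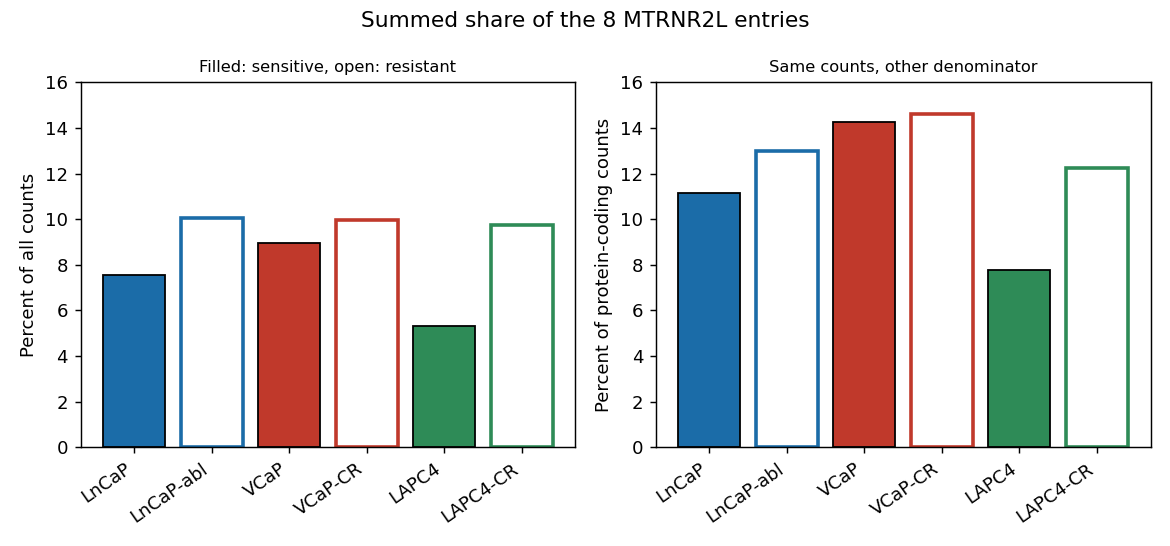
Summed counts of the 8 entries as a percent of all counts (left) and of protein-coding counts (right) in the 6 libraries, filled for sensitive and open for resistant lines. On all counts the resistant bars lie between 9.75% and 10.1%, above each sensitive bar; on protein-coding counts VCaP, at 14.2%, is above 2 of the resistant bars.

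The summed shares of other entries of mitochondrial sequence on nuclear chromosomes did not follow the members in every pair, although the largest copy of a protein gene did. The 163 entries named after mitochondrial protein genes (MTND, MTCO, MTATP and MTCYB copies) held 0.150%, 0.0852% and 0.0593% of counts in LnCaP, VCaP and LAPC4 and 0.0921%, 0.192% and 0.143% in the resistant lines. Their log2 change was thus -0.71 in the LnCaP pair and 1.18 and 1.27 in the VCaP and LAPC4 pairs. With entries that bear such a name only in GENCODE release 29 there were 349, at -0.03, 1.00 and 0.94. The largest of them, RP5-857K21.6 (MTCO1P12 in GENCODE), a copy of the cytochrome oxidase gene MT-CO1 at chr1:556317-557859, held 2861, 2768 and 2738 CPM in the sensitive and 3588, 5293 and 4686 in the resistant lines. It was thus higher in the resistant line of each pair and its groups did not overlap, as for 5 of 8 members and 3.83% of tested entries. The next entries by counts, RP5-857K21.7 (MTCO2P12) and RP5-857K21.11 (MTCO3P12), went the other way in the LnCaP pair. They held 673 and 404 CPM in LnCaP against 624 and 356 in LnCaP-abl, and were higher in the resistant lines of the VCaP and LAPC4 pairs.

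The short RNA classes summed here took smaller shares in the resistant lines, except rRNA pseudogenes in the VCaP pair. Other short RNA classes, such as snRNA and miRNA, were not summed. The 580 mitochondrial-type tRNA pseudogenes held 3.37%, 2.62% and 4.87% of counts in LnCaP, VCaP and LAPC4 and 1.78%, 2.13% and 1.77% in their resistant lines. The 179 rRNA pseudogenes, copies of nuclear ribosomal RNA, held 4.58%, 1.23% and 2.46%, against 2.15%, 1.34% and 1.98%. The 1519 snoRNA entries, guides of rRNA modification, held 3.47%, 5.52% and 4.14%, against 1.76%, 4.56% and 2.003%. The tRNA pseudogene and snoRNA classes were thus lower in each resistant line where the MTRNR2L family was higher, and their part in the family's change was not tested.

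Among the receptors and partners of humanin, 14 genes were found and 10 passed the filter. By edgeR 0 of 10 were called, with 7 log2 changes above 0 and 3 below, a median of 0.20, and a smallest adjusted p of 0.595. IGFBP3, a secreted binding protein of insulin-like growth factors, was at 2.55 FPKM in LnCaP and 268 in LnCaP-abl, at 44.8 in VCaP against 42.6 in VCaP-CR, and at 3.27 in LAPC4 and 49.97 in LAPC4-CR. IL6ST, the gp130 receptor chain, was at 8.94, 8.66 and 9.81 FPKM in the sensitive and 27.1, 15.7 and 13.1 in the resistant lines. The groups did not overlap, as for 3.83% of tested entries in that direction. BAX, the cell death effector that humanin binds, was apart in the other direction, at 8.97, 5.46 and 4.77 FPKM against 2.80, 3.25 and 3.36, as were 2.55% of tested entries. Neither was called by edgeR (log2 change 0.90 for IL6ST and -1.02 for BAX, adjusted p 0.595 for each). PRMT5, an arginine methyltransferase, was at 36.7, 18.7 and 34.1, against 31.2, 17.6 and 29.6. The receptor genes FPR2, FPR3, CNTFR and IL27RA did not pass the filter.

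Genes that transcribe and process mitochondrial RNA were found as 22 entries, of which 21 passed the filter. By edgeR 0 of 21 were called, with 6 log2 changes above 0 and 15 below. Their median over the 3 pairs was -0.13, against 0.36 for the members and -0.01 over all tested entries. The direction differed between pairs. Most of the 21 were lower in LnCaP-abl than in LnCaP, but most were higher in LAPC4-CR than in LAPC4. In the VCaP pair they split nearly evenly. Of all tested entries, 50.3%, 54.7% and 53.5% were higher in the resistant library of the LnCaP, VCaP and LAPC4 pairs. Summed over the 22 entries, the level was 323 FPKM in LnCaP and 238 in LnCaP-abl. It was 214 in VCaP against 224 in VCaP-CR, and 285 in LAPC4 against 324 in LAPC4-CR. HSD17B10, a subunit of mitochondrial RNase P, was at 58.8, 15.1 and 92.8 FPKM in LnCaP, VCaP and LAPC4 and at 44.5, 16.1 and 88.0 in their resistant lines. LRPPRC, which stabilises mitochondrial mRNAs, was at 24.7, 42.1 and 25.4, against 15.6, 54.7 and 40.0. RG9MTD1, another subunit of mitochondrial RNase P, was at 48.7, 25.8 and 31.2, against 26.9, 22.6 and 23.8.

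The entries whose log2 share followed the family sum most closely over the 6 libraries were FCHSD2 (Pearson's r 0.997), LOXL1 (0.996), RPL12P11 (0.995), SMARCA2 (0.990) and ESR1 (0.989). They are the top 5 of all tested entries outside the family, compared over 6 points, so a high r is the outcome of the choice. FCHSD2 held 10.9, 15.0 and 5.65 CPM in the sensitive and 18.1, 17.9 and 15.96 in the resistant lines. LOXL1 and RPL12P11 rested on 13 to 77 and 6 to 18 counts per library.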

How the data were processed

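Total RNA of 6 cell lines was made into libraries with RNeasy columns and the SOLiD Total RNA-Seq kit, per the labels' protocols. HTSeq and hg18 are named in the submitters' processing notes; the sources used here give no aligner, annotation release or treatment of reads with several matches. Per the file headers, each table gives a count and an FPKM per entry. The deposited FPKM was rebuilt within 1% for 51698 of 51698 entries as count over length and total. The deposited gene length is in bases, and 1 was added to deposited starts, which count from 0.

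Shares are CPM, counts per 1000000 counts of the library. Their changes have exact conditional binomial 95% intervals, and n = 1 library per state in a pair. Entries with a mean of at least 1 FPKM, scaled by median ratios, and outside the short RNA classes (8763 entries) were tested, 16221 in all, with edgeR 4.0.16 (quasi-likelihood, TMM, parental line as block, Benjamini-Hochberg, 5%). DESeq2 1.42.0, limma 3.58.1 and other settings were alternatives. Groups came from the labels and pairs from the line names; deviations from group means correlated at 0.48, 0.75 and 0.61 within the LnCaP, VCaP and LAPC4 pairs. Without separate cultures named, p-values measure how the change from sensitive to resistant varied between these pairs of lines. In the fit without the block they also take in the spread between the lines. Transcripts of GENCODE release 29 (GRCh38) were matched by gene ID for 8 of 8 members and aligned to MT-RNR2 with Biopython 1.88 (local, match 1, mismatch -1, gap -3 and -1); the deposited coordinates were not converted. Every member is named; of each list at most 3 entries with the highest mean FPKM were to be named, and BAX and the 4 receptor genes below the filter were named after their values were seen. Members and lists were chosen with earlier results of these data known.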

Additional observations from a re-analysis of the deposited data

Results flagged for a closer look

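Of the values set beside the family, 3 summed shares were higher in the resistant library of some pairs and lower in that of others. With 1 library per state in a pair, these differences were not tested. For the 163 entries named after mitochondrial protein genes, the log2 change of the LnCaP pair less that of the VCaP pair was -1.88, and less that of the LAPC4 pair -1.97. With names from GENCODE release 29 added, these differences were -1.04 and -0.97. For the rRNA pseudogenes, the LnCaP pair minus the VCaP pair was -1.22 and the VCaP pair minus the LAPC4 pair 0.44. No MTRNR2L member had counting intervals on opposite sides of 0 in 2 pairs. Groups of 3 libraries are too small for the check for single libraries that stand apart.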

How the results depend on the processing

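Of 80 values of the members across the pairs under alternatives, 80 kept their direction and stayed above 5%, with log2 changes from 0.03 to 0.68 and adjusted p from 0.0754 (MTRNR2L8 in edgeR without a filter) to 1.00. Calls over all entries, 0 higher and 0 lower, numbered 96 and 60 when no filter was used and 82 and 56 by DESeq2; with 1 pair left out they were 0 to 10 higher and 1 to 15 lower. Without the replicate block they were 0 and 0. The pairing moved the counts at an unadjusted p under 0.05 from 248 and 159 to 723 and 546. It also moved MTRNR2L8, from an SE of 0.44 and p 0.377 by edgeR without the block to 0.19 and 0.0463 with it.

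Of 144 values of the members within pairs, 11 changed sign, 6 of them where the counting interval on all counts held 0. These 6 were MTRNR2L3 (0.073 to 0.074) and MTRNR2L5 (0.033 to 0.038) in the LnCaP pair on log2(scaled FPKM + 1, 0.25 or 5). MTRNR2L1 in the LnCaP pair went to -0.10 with protein-coding counts as the denominator and to -0.074 with those outside the family. MTRNR2L10 in the VCaP pair went to -0.064, -0.057 and, with TMM, -0.0037. The protein-coding denominator moves every entry by -0.19 (LnCaP), -0.12 (VCaP) and -0.22 (LAPC4).

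The family's log2 changes of 0.41, 0.15 and 0.88 in these pairs became 0.22, 0.038 and 0.66 over protein-coding counts, 0.25, 0.045 and 0.73 over those outside the family, and 0.39, 0.10 and 0.80 with TMM. They were 0.24, 0.13 and 0.95 without MTRNR2L8, and 0.25, 0.15 and 0.82 as the members' median. The count of members at least 2-fold higher in the LAPC4 pair, 1 on all counts, was 0 under these 3 denominators and 3 on log2(scaled FPKM + 1, 0.25 or 5). Denominators outside the family and the fit with short RNA classes were chosen after seeing the data.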
